A study of Mus musculus with 9 samples.

Results

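Cytosolic ribosomal protein genes code for the proteins of the ribosome that translates nuclear messages, and their messages were followed here in mouse CD8 T cells during the first hours of stimulation. The members are the protein-coding genes of the count table whose symbol is Rpl or Rps followed by a digit, or is Rpsa, Rplp0, Rplp1 or Rplp2, without the S6 kinase genes and without symbols that mark pseudogenes. Of 55011 genes in the table, 399 symbols matched, 305 of these marked pseudogenes, and 7 more were not annotated as protein coding, which left 87 members. They comprise 49 genes of the large subunit, 34 of the small subunit, 3 of the stalk, and Rps19bp1, which codes for a binding protein of RPS19 and not for a subunit of the ribosome. A total of 83 members passed the filter on low counts and were tested. The other 4 were Rpl10l with 0 counts over all libraries, Rpl39l with 19, and Rpl3l and Rps23rg1 with 4 each.

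The ribosome is built from a small subunit, which decodes the message, and a large subunit, which joins amino acids. Resting T cells keep few ribosomes, and stimulation through the T cell receptor drives growth and ribosome production, in part through the kinase complex mTORC1. Messages of ribosomal proteins begin with a run of pyrimidines, the 5′ terminal oligopyrimidine (TOP) tract, through which mTORC1 and the binding protein LARP1 set their translation and stability.

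All cells were naive CD8 T cells from the spleen of wild-type mice, cultured for 6 h on plates coated with antibodies to CD3 and CD28. The control group of 3 libraries was stimulated without a compound, 3 libraries received 20 mM D-2HG, and 3 received 20 mM L-2HG, each from the start of stimulation. These compounds, the D and L forms of 2-hydroxyglutarate, are mirror images of each other, and both are known to inhibit enzymes that use 2-oxoglutarate. The labels do not give the age of the mice, whether libraries came from separate mice, or an unstimulated sample, and p-values then reflect only how far these libraries spread, which may be technical.

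The libraries held from 562627 (L-2HG replicate 2) to 5731885 counts (control replicate 3). A pair of mouse satellite repeat genes, Gm10800 and Gm10801, took 0.910% to 5.35% of counts in controls, 3.79% to 17.05% with D-2HG and 6.71% to 24.4% with L-2HG, and its highest control was replicate 2 and its highest L-2HG library replicate 2. Transcripts encoded by mitochondria took 2.23% to 3.06% in controls, 0.992% to 1.87% with D-2HG and 1.19% to 1.83% with L-2HG. All 9 CD8 T cell markers were measured, at summed levels of 3908 to 6425 CPM (counts scaled to a library of fixed size, by TMM) in controls, 3572 to 4042 with D-2HG and 3372 to 4863 with L-2HG, and Cd8a was present in every library. With D-2HG 4 of these markers fell and 1, Thy1, rose, and with L-2HG 1 fell and Thy1 rose. Over all tested genes, 10.5% fell and 11.8% rose with D-2HG, and 8.3% fell and 9.41% rose with L-2HG. In the bulk samples, fewer cells of a type and less RNA per cell cannot be told apart.

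The starts of several members are shown because the TOP tract is the sequence feature the family is known for, and because genes at both ends of the fold changes described further on can then be compared. Each line gives 15 bases before the annotated start, the start base and 14 bases after it, from RefSeq on build GRCm38.p6, and capitals mark CTTTTC or CTTTCC where the window holds either.
Rps27 (chr3:90213634-90213663, minus strand): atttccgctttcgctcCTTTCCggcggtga
Rpl28 (chr7:4792950-4792979, plus strand): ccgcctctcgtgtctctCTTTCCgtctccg
Rpl38 (chr11:114668565-114668594, plus strand): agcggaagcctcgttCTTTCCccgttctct
Rpl15 (chr14:18270972-18271001, minus strand): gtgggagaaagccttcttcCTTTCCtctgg
Rps10 (chr17:27635230-27635259, minus strand): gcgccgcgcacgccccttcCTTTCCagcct
Rps18 (chr17:33955651-33955680, minus strand): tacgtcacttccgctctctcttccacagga
Rpl5 (chr5:107900513-107900542, plus strand): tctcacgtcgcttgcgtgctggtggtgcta

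RefSeq windows were found for 67 of the 87 members. On the sense strand 16 of these, or 23.9%, held CTTTTC or CTTTCC, against 2.88% of 27025 genes with such a window and 2.9% of 69 mitochondrial ribosomal protein genes. On the antisense strand the share was 1.49% of members and 2.56% of all genes. A start at C followed by further pyrimidines to at least 5 in a row was present in 14 members, or 20.9%, against 3.01% of all genes. Windows were also found for 9 other messages listed as having TOP tracts. Of these 0 held either hexamer and 2 had such a start at C, so a window without the hexamer does not show that a TOP tract is absent. A match is a string in a window and not a measured start site, and a start annotated some bases away moves the tract: in Rpl5 the annotated start is not a pyrimidine, and in Rps18 the tract of 9 pyrimidines holds neither hexamer.

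The members took a smaller share of counts in every treated library than in controls 1 and 3. Their share was 10.28%, 7.31% and 9.58% in control replicates 1, 2 and 3, 7.21%, 7.16% and 6.14% under D-2HG, and 7.83%, 4.30% and 7.71% under L-2HG. The D-2HG libraries all lay below the lowest control, while 2 L-2HG libraries lay above control 2. Group means were 9.06% ± 1.55 (SD, n = 3) for control, 6.84% ± 0.604 for D-2HG and 6.62% ± 2.003 for L-2HG. Exact 95% binomial intervals were narrow beside these differences, 7.27% to 7.35% in control 2 and 4.25% to 4.36% in L-2HG 2, and cover counting error only. Without the satellite genes and sensory receptor genes in the total, the shares were 10.4%, 7.73% and 9.68% in controls, 7.75%, 7.45% and 7.42% under D-2HG, and 8.41%, 5.71% and 8.42% under L-2HG, so that D-2HG 1 then lay just above control 2.

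**Figure D1:**
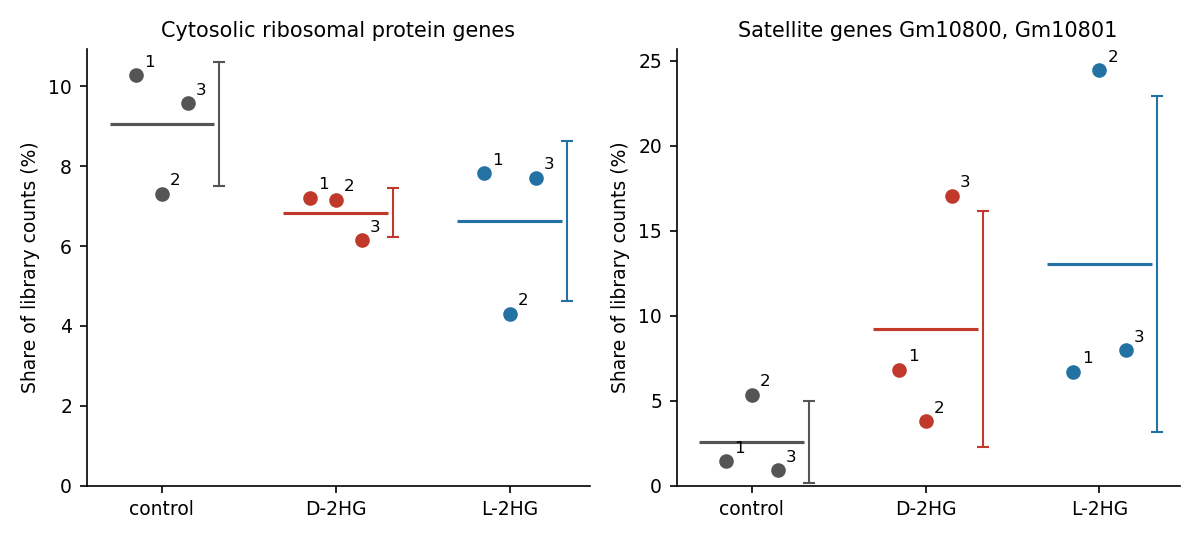
Share of library counts (%, vertical axis) in cytosolic ribosomal protein genes (left) and in the satellite genes Gm10800 and Gm10801 (right) for the 3 groups, with 1 point per library labelled by replicate, a line at the mean and a bar of 1 SD (n = 3). Control 2 at 7.31% lies beside the D-2HG libraries on the left, and L-2HG 2 is lowest on the left at 4.30% and highest on the right at 24.4%.

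Large and small subunit genes had similar summed counts in every library. The ratio of large-subunit to small-subunit counts was 1.02, 1.05 and 1.03 in controls, 1.03, 1.05 and 1.05 under D-2HG, and 1.01, 1.05 and 1.04 under L-2HG, with overlapping ranges. Pseudogenes of ribosomal proteins, 304 in the table, took 0.0267% to 0.0440% of counts in the 9 libraries, and adding them moved the group means of the members' share only to 9.10%, 6.87% and 6.65%.

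Many members are near copies of other genes, which limits what can be said of a single one. Of the 50-base stretches of a member's reference transcript, a median of 52.1% also occur in another annotated gene. The share was 98.7% in Rps27, 93.3% in Rpl9, 86.7% in Rps18 and 79.0% in Rps2, which shares stretches with 71 genes, against 2.96% in Rps3 and 16.5% in Rpl4. Reads from the shared stretches could have been split or dropped by the counting, and the levels of members with high shares are uncertain. Ranked over the 83 members, this share had Spearman correlations of -0.14 and -0.15 with the log2 fold changes under D-2HG and L-2HG, given as a description over genes of the same libraries.

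Levels differed widely between members. Per kilobase of reference transcript, the stalk gene Rplp1 stood at 3468 CPM, Rpl8 at 3356, Rps27 at 3071 and Rps14 at 2960, each a mean over the 9 libraries. Rpl24, with 38.1 CPM per kilobase, and Rps27rt, with 27.0, were the lowest of those tested, and 81.7% and more of the stretches of both occur in other genes. Since transcript lengths come from 1 reference transcript per gene, of 345 to 5130 bases, a gene with a long annotated model such as Rps15a is understated.

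Against control, D-2HG lowered 14 of 83 tested members and raised 0 (quasi-likelihood test of edgeR at a threshold of 0.05 on p adjusted by Benjamini-Hochberg over all tested genes). That is 16.9% of members, beside 10.5% of all 10235 tested genes called lower. The fold change was negative in 82 of 83 members, with a median of -0.48 on the log2 scale against 0.04 over all tested genes. Among the genes that fell were Rps18 and Rps26 of the small subunit, and Rpl36a, Rpl14, Rpl3, Rpl41, Rpl7a, Rpl38, Rpl35, Rpl11 and Rpl15 of the large subunit. A further 20 members, all with lower values, had an adjusted p between 0.05 and 0.10, beside 6% of all tested genes in that range and lower. At an unadjusted p under 0.05, 43 members (51.8%) were lower, beside 18.5% of all tested genes. In CPM, the D-2HG libraries lay below all controls in 36 of 83 members, beside 19.3% of all tested genes. They lay above all controls in 0 members, beside 20.7% of all tested genes.

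With L-2HG, 13 of 83 members fell and 0 rose in the same test. That is 15.7%, beside 8.3% of all tested genes called lower. Again 82 of 83 fold changes were negative, with a median of -0.51 against 0.05 over all tested genes, and 49 members (59%) were lower at an unadjusted p under 0.05, beside 17.6% of all tested genes. Among those that fell were Rps18 and Rps27l of the small subunit, the stalk gene Rplp0, and Rpl14, Rpl3, Rpl7a, Rpl17, Rpl6, Rpl15 and Rpl29 of the large subunit. The L-2HG libraries lay below all controls in 8 of 83 members, a smaller share than the 14.8% of all tested genes. Among these 8 were Rpsa, Rpl7a, Rpl10, Rpl10a, Rpl15 and Rpl29. Both comparisons use the same 3 controls.

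**Figure D2:**
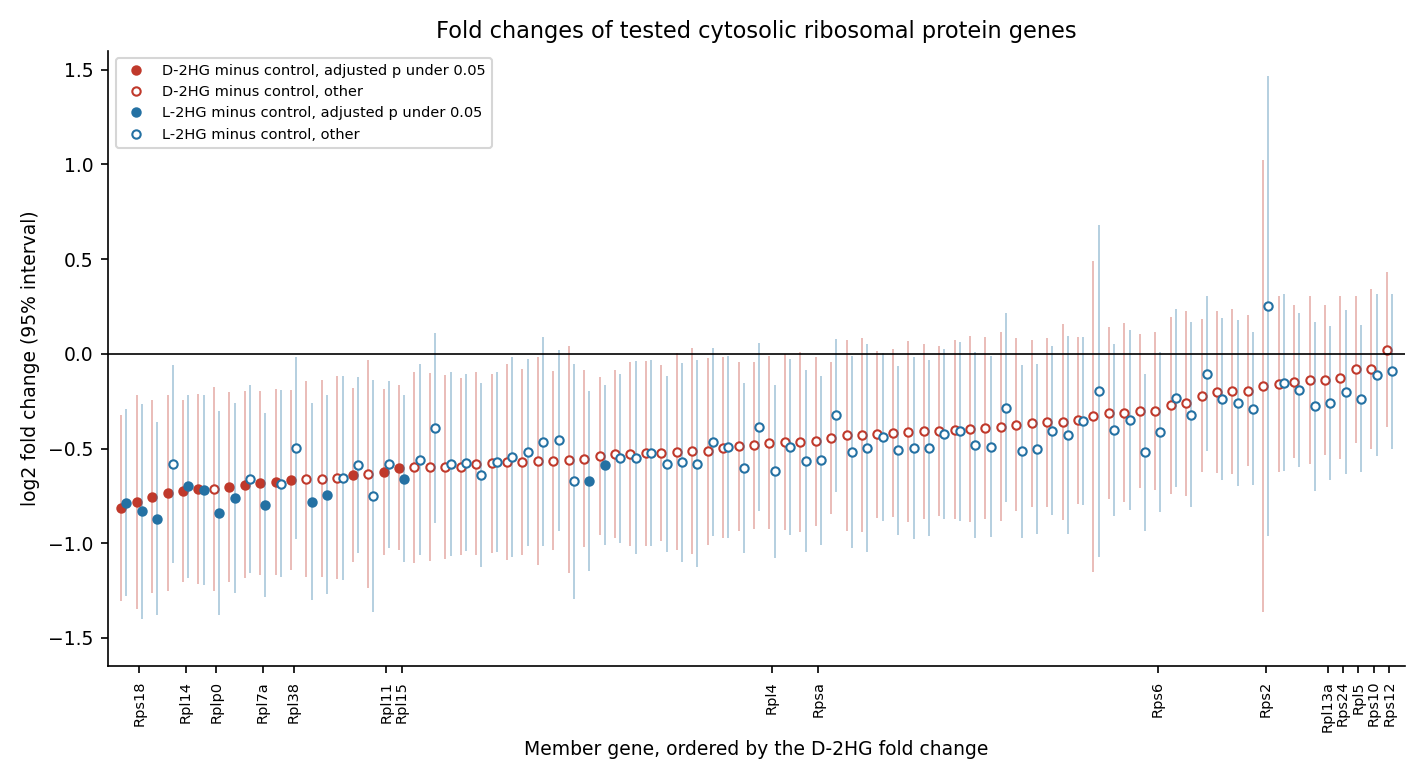
Log2 fold change with its 95% interval (vertical axis) of the 83 tested members against control, ordered by the D-2HG value (horizontal axis, with some of the genes described here named), for D-2HG in red and L-2HG in blue, with filled points at adjusted p under 0.05. All points lie below 0 apart from Rps12 with D-2HG at 0.02 and Rps2 with L-2HG at 0.25.

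These counts rest on single libraries, and the calls over all genes moved in the same fits. With D-2HG, 0 members were called without control 1, without control 3, or without any 1 of the 3 D-2HG libraries, where 1.74% to 3.78% of all genes tested were called lower. Without L-2HG 1, L-2HG 2 and control 2, 3, 32 and 62 members were called (3.61%, 38.6% and 74.7%), beside 7.58%, 13.1% and 19.7% of all genes called lower. With L-2HG, 0 members were called without control 1, control 3, L-2HG 1 or L-2HG 2, where 0.325% to 2.65% of all genes were called lower. Without D-2HG 1, 2 and 3, 3, 4 and 8 members were called (3.61%, 4.82% and 9.64%), beside 4.88%, 5.61% and 7.07% of all genes. Without L-2HG 3 and without control 2, 30 and 63 were called (36.1% and 75.9%), beside 11.1% and 18.7%. No member was called in every one of these fits. In the fits that called 0, from 13 to 30 members with D-2HG (15.7% to 36.1%) and from 17 to 50 with L-2HG (20.5% to 60.2%) were lower at an unadjusted p under 0.05, beside 11.1% to 14.2% and 11.2% to 14% of all genes. The median fold change stayed negative in all of them, from -0.66 to -0.33 with D-2HG and from -0.71 to -0.34 with L-2HG. On library totals without TMM, edgeR called 0 members with either compound, beside 4.71% and 2.78% of all genes called lower. At an unadjusted p under 0.05 in that fit, 18 and 20 members (21.7% and 24.1%) were lower, beside 13.1% and 11% of all genes.

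Control 2 stood apart from the other controls in the same genes. Its CPM was below the mean of controls 1 and 3 in 82 of 83 members and below both of them in 80, with a median difference of -0.63 on the log2(CPM + 0.5) scale, against 0.01 over all tested genes. Set against control 2 alone, the D-2HG mean was lower by a median of -0.05 and the L-2HG mean by -0.13. All 3 D-2HG libraries lay below control 2 in 37 of 83 members, or 44.6%, against 31% of all tested genes, and above it in 18, or 21.7%, against 33%. For L-2HG, all 3 lay below control 2 in 9 members, or 10.8%, against 24.8% of all tested genes, and above it in 0, against 24.8%. The median log2 CPM (edgeR, prior count 2) of the tested members was 9.49 in control 2, 9.51, 9.42 and 9.38 in the D-2HG libraries, and 9.55, 8.88 and 9.60 in the L-2HG libraries, beside 10.25 and 10.03 in controls 1 and 3. The D-2HG libraries and L-2HG 1 and 3 thus lay near control 2, and L-2HG 2 lay well below it.

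**Figure D3:**
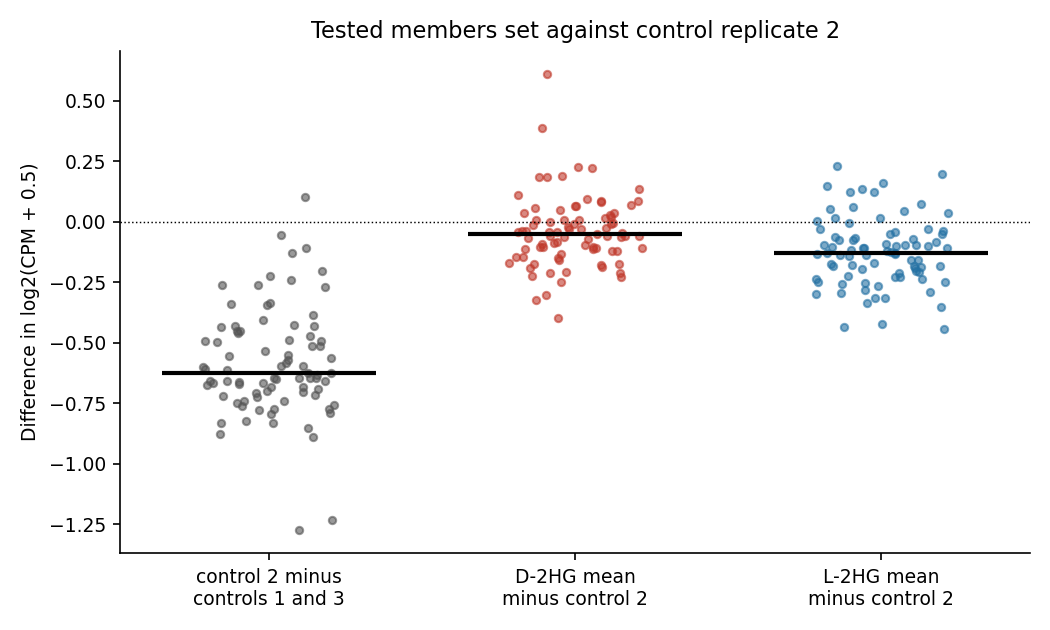
Difference in log2(CPM + 0.5) (vertical axis) for the 83 tested members, 1 point per gene with the median as a bar, for control 2 minus the mean of controls 1 and 3, the D-2HG mean minus control 2, and the L-2HG mean minus control 2. The first set centres at -0.63, and the other sets centre near 0, at -0.05 and -0.13.

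Rps18, Rpl3, Rpl14, Rpl7a and Rpl15 passed the test in each of these comparisons, which share their controls. Rpl7a, a large-subunit protein (chr2:26910764-26913318, plus strand, GENCODE M21 on GRCm38), had 1230, 744 and 1043 CPM in controls, 634, 667 and 581 under D-2HG, and 679, 379 and 664 under L-2HG. Every treated library lay below the lowest control. The change was -0.68 ± 0.23 (log2, SE, adjusted p = 0.0414) with D-2HG and -0.80 ± 0.23 (adjusted p = 0.0293) with L-2HG, from edgeR's test. Of the 50-base stretches of its reference transcript, 81.2% occur in other genes.

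Rpl15, a large-subunit protein that is also mutated in some cases of Diamond-Blackfan anaemia (chr14:18267823-18271391, minus strand), had 696, 436 and 589 CPM in controls, 357, 384 and 395 under D-2HG, and 385, 274 and 421 under L-2HG. Again every treated library lay below the lowest control. The edgeR changes were -0.60 ± 0.21 (adjusted p = 0.0454) and -0.66 ± 0.21 (adjusted p = 0.0395). Rps18, a protein of the small subunit's head (chr17:33951999-33956001, minus strand), had 1690, 901 and 1437 CPM in controls, 819, 844 and 682 under D-2HG, and 987, 428 and 832 under L-2HG. Here L-2HG 1 lay above control 2. The edgeR changes were -0.78 ± 0.27 (adjusted p = 0.0442) and -0.83 ± 0.27 (adjusted p = 0.0423).

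Rpl3, a large-subunit protein that reaches the centre where peptide bonds form, had 2794, 1526 and 2273 CPM in controls, 1267, 1347 and 1438 under D-2HG, and 1297, 930 and 1649 under L-2HG. Rpl14 (chr9:120571444-120574654, plus strand) had 1260, 695 and 1069 CPM in controls, 637, 578 and 616 under D-2HG, and 624, 456 and 773 under L-2HG. In both genes the D-2HG libraries lay below every control, and L-2HG 3 lay above control 2. The changes were -0.70 and -0.76 for Rpl3 and -0.73 and -0.70 for Rpl14 with D-2HG and L-2HG.

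**Figure D4:**
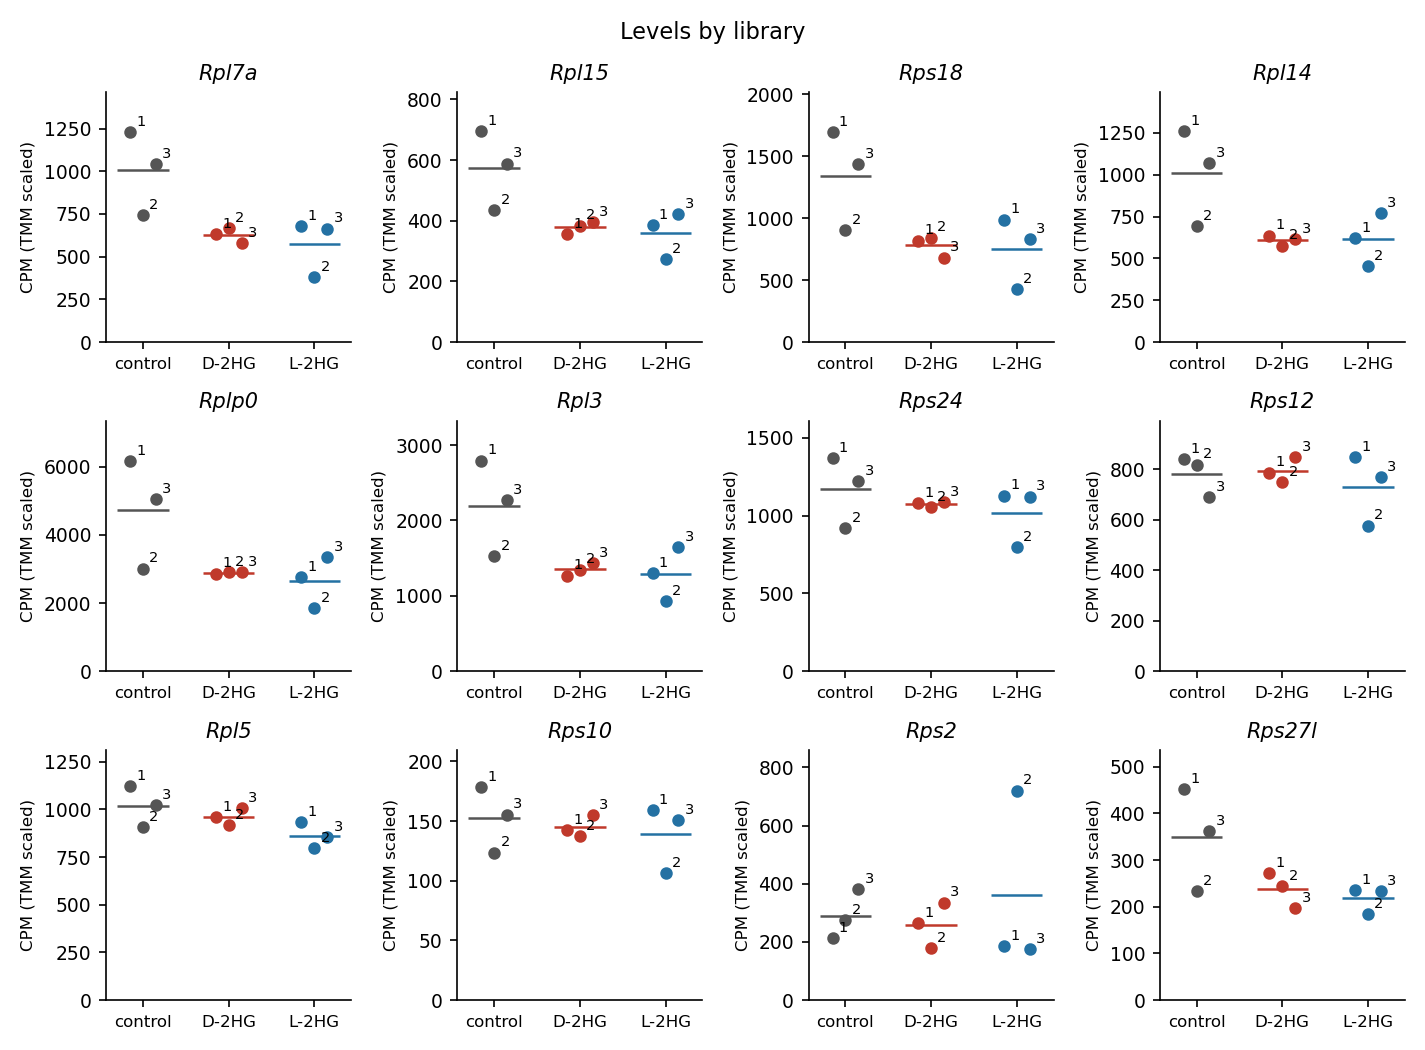
CPM scaled by TMM (vertical axes, from 0) of 12 members by group, 1 point per library labelled by replicate, with a line at the group mean. Rpl7a and Rpl15 lie below every control in all treated libraries, while Rps12, Rpl5 and Rps10 overlap between groups and Rps2 has 1 high library, L-2HG 2 at 721 CPM.

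The stalk of the large subunit, which recruits elongation factors, is formed by the products of Rplp0, Rplp1 and Rplp2. Rplp0 had 6173, 3011 and 5051 CPM in controls, 2864, 2915 and 2899 under D-2HG, and 2752, 1844 and 3357 under L-2HG. It fell with L-2HG (-0.84 ± 0.26, edgeR adjusted p = 0.0346), and its change with D-2HG, -0.71 ± 0.26, had an adjusted p of 0.0514 by edgeR. Rplp1 changed by -0.31 and -0.40 and Rplp2 by -0.20 and -0.24 with D-2HG and L-2HG, none past the threshold.

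RPL5 and RPL11 form, with 5S ribosomal RNA, the particle that binds the p53 regulator MDM2 when ribosome assembly is disturbed. Rpl5 had 1123, 906 and 1022 CPM in controls, 958, 919 and 1007 under D-2HG, and 934, 796 and 856 under L-2HG, and its changes were -0.08 ± 0.19 and -0.24 ± 0.19. Rpl11 had 774, 434 and 650 CPM in controls, 397, 401 and 410 under D-2HG, and 442, 349 and 444 under L-2HG. Its change was -0.62 ± 0.21 with D-2HG (edgeR, adjusted p = 0.0401) and -0.58 ± 0.21 with L-2HG (edgeR, adjusted p = 0.0587). The difference between these genes was not tested.

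Of the further members with a known role of their own given here, only Rpl38 passed the test, with D-2HG. Rps6, the substrate of the S6 kinases, had 943, 626 and 888 CPM in controls, 665, 665 and 665 under D-2HG, and 669, 511 and 661 under L-2HG, at changes of -0.30 and -0.41. Rps27a, which codes for ubiquitin fused to a ribosomal protein, changed by -0.59 and -0.57 (edgeR, adjusted p = 0.0599 and 0.0749). Rpsa, also known as a laminin receptor, changed by -0.46 and -0.56, Rps3, which has a role in DNA repair, by -0.41 and -0.50, Rps19, mutated in Diamond-Blackfan anaemia, by -0.40 and -0.48, and Rpl13a, a translational silencer in interferon responses, by -0.14 and -0.26. Rpl38, required for translation of Hox messages in the embryo, had 474, 259 and 416 CPM in controls, 251, 251 and 223 under D-2HG, and 308, 190 and 307 under L-2HG. It fell with D-2HG (-0.67 ± 0.23, edgeR adjusted p = 0.0425), while its change of -0.50 with L-2HG had an adjusted p of 0.123 by edgeR.

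Of the most abundant members by CPM, Rpl4 had 6087, 3728 and 5218 CPM in controls, 3514, 3628 and 3722 under D-2HG, and 3134, 2825 and 3810 under L-2HG. Its changes were -0.47 ± 0.22 and -0.62 ± 0.22, with adjusted p values of 0.12 and 0.0548 by edgeR. Rps3, Rpl8, Rps4x and Rps14 also missed the threshold in both comparisons, at changes from -0.39 to -0.60 with D-2HG and from -0.49 to -0.58 with L-2HG. Rps19bp1 stood outside the common pattern of the controls, with 57.1, 73.7 and 110 CPM in controls 1, 2 and 3, 49.9, 55.0 and 63.2 under D-2HG, and 53.7, 49.4 and 60.4 under L-2HG.

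A few members hardly differed between the groups. Rps12, a small-subunit protein, had 839, 818 and 691 CPM in controls, 787, 749 and 848 under D-2HG, and 848, 577 and 768 under L-2HG. Its groups overlapped, with changes of 0.02 (95% interval -0.39 to 0.43) and -0.09 (-0.50 to 0.32). It was also the only member in which control 2 lay above the mean of the other controls, by 0.10 on the log2 scale. Rps10 changed by -0.08 and -0.11, Rps24 by -0.13 and -0.20, and Rps21 by -0.16 and -0.15. Rps2 had 214, 276 and 383 CPM in controls, 265, 179 and 335 under D-2HG, and 186, 721 and 175 under L-2HG. Its change of 0.25 with L-2HG was set by L-2HG 2, the shallowest library, and was -0.71 without it.

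Several members have a paralogue, which in some cases, such as Rpl22l1, can take their place in the ribosome. The count ratio of Rpl22l1 to Rpl22 was 0.664, 0.504 and 0.654 in controls, 0.611, 0.557 and 0.535 under D-2HG, and 0.574, 0.490 and 0.589 under L-2HG, so the groups overlapped. That of Rps27l, a p53 target, to Rps27 was 0.295, 0.268 and 0.281 in controls, 0.273, 0.252 and 0.230 under D-2HG, and 0.201, 0.275 and 0.199 under L-2HG. Here 2 L-2HG libraries lay below all others and L-2HG 2 among the controls. Rps27l fell with L-2HG (-0.67 ± 0.23, edgeR adjusted p = 0.0476), and with D-2HG its change was -0.55 ± 0.22 (edgeR, adjusted p = 0.0764). Rpl36al and Rpl36a stood at ratios of 0.374 to 0.417 in controls, 0.390 to 0.491 with D-2HG and 0.367 to 0.425 with L-2HG, and Rpl7l1 and Rpl7 at 0.274 to 0.278, 0.252 to 0.326 and 0.253 to 0.295. Rpl3l, Rpl10l and Rpl39l, known from muscle or testis, had 4, 0 and 19 counts over all 9 libraries, near or below what could be compared at this depth.

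To see whether the mix of ribosomal protein messages differed, counts were scaled to the sum over members in each library. On that scale 0 of 83 members passed edgeR's test in each of the 3 comparisons, with 11, 11 and 0 at an unadjusted p under 0.05 for D-2HG, L-2HG and D-2HG against L-2HG. Over all tested genes, 1.29%, 0.00977% and 0.0586% passed, and 30.8%, 31.4% and 3.86% had an unadjusted p under 0.05. Without control 2, 8 members passed with each compound, 6 higher and 2 lower, while 38.6% and 38.8% of all genes tested passed with D-2HG and L-2HG. Without L-2HG 2, 2 members and 12.1% of all genes passed with D-2HG. The share of 5 members in the members' counts was lower in all 6 treated libraries than in any control (among them Rpl7a and Rpl15), beside 2.68% of all tested genes, and that of 6 was higher (Rps10, Rps15a, Rps21, Rps24, Rpl23 and Rplp2), beside 14.6%. The median of all tested genes was 0.47 and 0.53 on this scale with D-2HG and L-2HG, since the members' sum was lower, so these shares are no like measure for the members.

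Rpl7a made up 106, 105 and 105 counts per 10000 member counts in controls, 90.9, 98.5 and 86.1 under D-2HG, and 92.6, 79.3 and 87.9 under L-2HG. Rps24, in which mutations also cause Diamond-Blackfan anaemia, made up 118, 131 and 123 in controls, 155, 156 and 162 under D-2HG, and 154, 166 and 148 under L-2HG. Relative to the members' sum, Rpl7a differed by -0.20 and -0.28 on the log2 scale (edgeR, adjusted p = 0.231 and 0.122), and Rps24 by 0.34 and 0.33 (edgeR, adjusted p = 0.0765 and 0.0762). Rps12 made up 72.2, 116 and 69.5 in controls, 113, 111 and 126 under D-2HG, and 116, 121 and 102 under L-2HG, so control 2 lay with the treated libraries. Rpl5 made up 96.7, 129 and 103 in controls, 136 to 149 with D-2HG and 113 to 166 with L-2HG, so its control 2 lay below every D-2HG library and within the L-2HG range.

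**Figure D5:**
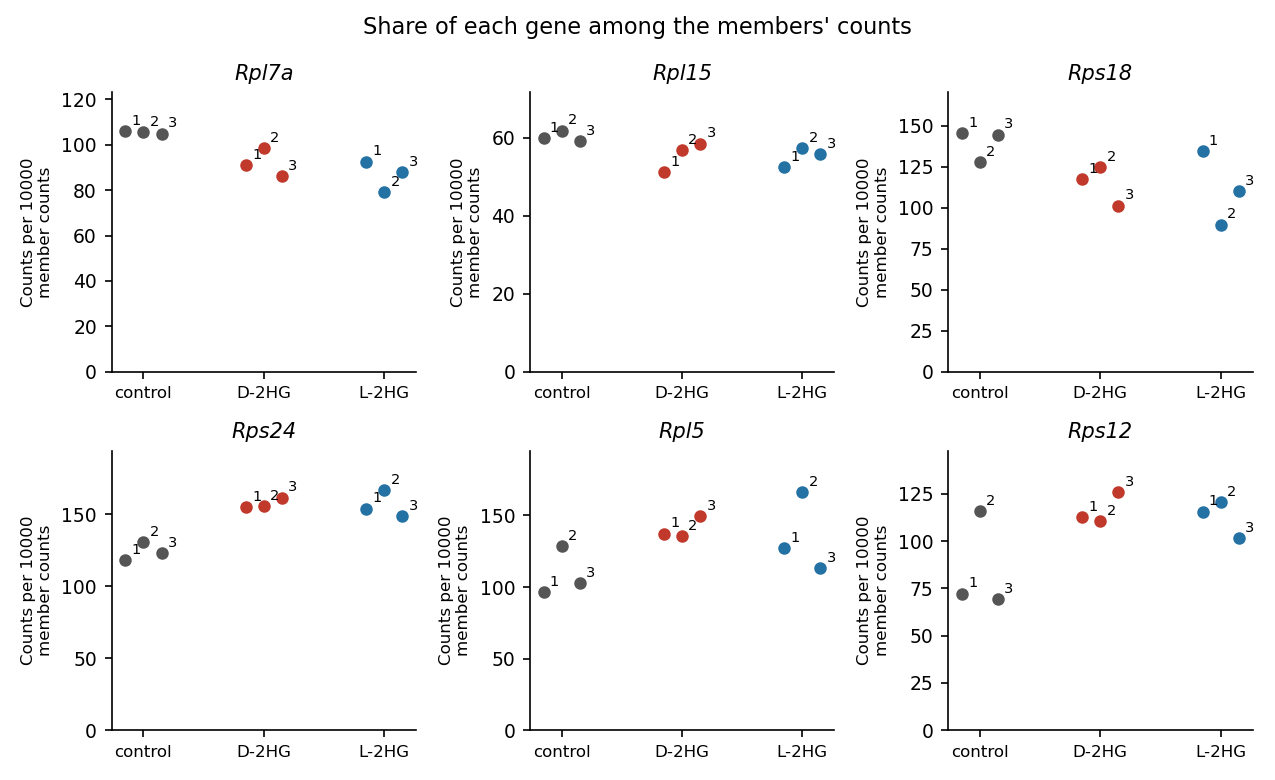
Counts per 10000 member counts (vertical axes, from 0) of 6 members by group, 1 point per library labelled by replicate. Rpl7a and Rpl15 are lower and Rps24 is higher in all 6 treated libraries than in any control, whereas for Rps12 control 2, at 116, lies among the treated libraries.

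D-2HG and L-2HG, mirror images at the same dose and time, differed in 0 of 83 members (edgeR, smallest adjusted p = 0.891), beside 0.303% of all tested genes. DESeq2 and limma-voom also called 0. At an unadjusted p under 0.05 in edgeR's test there were 0 members, beside 6.97% of all tested genes. The median difference, D-2HG minus L-2HG, was 0.05 on the log2 scale against 0.01 over all tested genes. Its sign was not stable: leaving out 1 library it ran from -0.13 without L-2HG 2 to 0.18 without L-2HG 3, and limma-voom gave -0.0028. No member had ranges that did not overlap, beside 8.13% of all tested genes with D-2HG below L-2HG and 7.77% above. For Rpl7a the difference was 0.12 (95% interval -0.37 to 0.60), for Rpl15 0.06 (-0.38 to 0.50) and for Rplp0 0.12 (-0.41 to 0.66). Intervals reached a median of 0.48 to either side and, leaving out Rps2 and Rps27rt, stayed between -0.71 and 0.74. Each interval gives the differences that 3 libraries a group leave possible for that member, and is not a limit of detection. L-2HG 2, the shallowest library, had the lowest CPM of all 9 libraries in 82 of 83 members.

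Tested members with CTTTTC or CTTTCC at the start, 15 genes, had median log2 fold changes of -0.38 with D-2HG and -0.29 with L-2HG. The 48 tested members whose window held neither had medians of -0.48 and -0.51. Among the genes whose starts are printed, Rpl38 and Rpl15 carry the string and fell with D-2HG, while Rps10 and Rpl28 carry it and changed by -0.08 and -0.20. Rps18 fell with both compounds and holds a pyrimidine run without the string.

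Ribosomal proteins whose symbols lie outside the rule behaved alike in direction. Rack1, a small-subunit scaffold, had 3570, 2516 and 3155 CPM in controls, 2265, 2347 and 1709 under D-2HG, and 2285, 1104 and 2245 under L-2HG, at changes of -0.55 and -0.71 that did not pass (edgeR, adjusted p = 0.116 and 0.0564). Fau changed by -0.39 and -0.24 and did not pass either.

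Of 8 genes listed as chaperones of ribosomal proteins, 4 fell with D-2HG (Tsr2, Ltv1, Naca and Btf3). Of these, Naca and Btf3 are not dedicated to a single ribosomal protein. With L-2HG 6 of the 8 fell, where Bccip and Grwd1 were added, and none rose with either compound. That is 50% and 75%, beside 10.5% and 8.3% of all tested genes called lower. Tsr2, which carries RPS26, had 163, 94.98 and 125 CPM in controls, 70.2, 67.4 and 59.6 under D-2HG, and 63.6, 69.1 and 79.0 under L-2HG, below all controls in every treated library. It changed by -0.96 and -0.86 (edgeR, adjusted p = 0.00749 and 0.0193). Of 34 initiation factors, 9 fell with D-2HG and 14 with L-2HG and none rose, among them Eif2s2 at -0.85 and -0.91. Their shares were 26.5% and 41.2%, beside the same 10.5% and 8.3% of all tested genes.

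Other messages with TOP tracts were split. Of 15 tested, 3 fell and 2 rose with D-2HG, and 5 fell and 0 rose with L-2HG. The share that fell was 20% and 33.3%, beside 10.5% and 8.3% of all tested genes. Of all tested genes, 11.8% and 9.41% rose. Npm1, a nucleolar chaperone, fell by 0.80 and by 0.92 on the log2 scale with D-2HG and L-2HG, and Eef1d and Eif3e also fell with both. Eef1a1 and Hnrnpa1 fell with L-2HG alone past the threshold, without a test of the difference. Eif4b, a helicase cofactor, had 396, 825 and 465 CPM in controls, 972, 1008 and 1000 under D-2HG, and 854, 1011 and 695 under L-2HG, and rose with D-2HG by 0.82 (edgeR, adjusted p = 0.0231). Eif3a rose with D-2HG by 0.73. In both genes control 2 was again the control nearest to the D-2HG libraries.

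Of 21 tested genes of mTORC1 and of TOP message control, 3 rose and 2 fell with each compound. Larp7 and Rheb, the direct activator of mTORC1, fell with both, Rheb by 0.60 and by 0.71 on the log2 scale. Rps6kb1, Larp4b and Tial1 rose with D-2HG, and Mtor, Tsc2 and Rps6ka3 rose with L-2HG. Larp7 and Rps6ka3 share family symbols with Larp1 and Rps6kb1, and no part of theirs in mTORC1 or TOP control is claimed here. Larp1, which binds the TOP tract, changed by 0.14 and 0.01 and did not pass. Of 15 tested genes of ribosome quality control, 3 rose with each compound and none fell, Ltn1 and Ascc3 with both, Ifrd2 with D-2HG and Gcn1 with L-2HG. The shares of all tested genes given above apply here too.

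Other large assemblies were set beside the members. Nuclear genes of mitochondrial ribosomal proteins were called lower in 35 of 77 with D-2HG and 26 of 77 with L-2HG (medians -0.63 and -0.60), nuclear respiratory chain genes in 45 and 23 of 73 (-0.71 and -0.64), and proteasome subunits in 14 and 24 of 38 (-0.58 and -0.68). As shares these are 45.5% and 33.8%, 61.6% and 31.5%, and 36.8% and 63.2%, beside 10.5% and 8.3% of all tested genes called lower. No gene of these 3 lists was called higher, beside 11.8% and 9.41% of all tested genes. No test compared them with the members.

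Markers of other cells moved with the members in part. B cell markers summed to 181 to 325 CPM in controls, 140 to 145 with D-2HG and 141 to 201 with L-2HG. Of 8 markers 3 were tested and 1, Ighm, fell with both compounds, while Cd79a, Ms4a1, Pax5 and Cd22 had 11 to 41 counts in all libraries together. Monocyte and macrophage markers summed to 49.9 to 59.2 CPM in controls, 20.3 to 26.8 with D-2HG and 24.3 to 26.7 with L-2HG, nearly all from Ly6c2, which CD8 T cells can also express, and Lyz2, Adgre1, Itgam and Cd14 had 2 to 14 counts. NK cell markers summed to 236 to 399, 207 to 240 and 186 to 275 CPM, nearly all from Nkg7. CD4 T cell markers stood at 9.69 to 11.9, 13.5 to 16.5 and 11.8 to 17.2 CPM, mostly Cd40lg, with Cd4 at 13 counts in all. Dendritic cell markers stood at 15.5 to 23.2, 23.7 to 39.3 and 23.7 to 34.7 CPM, and neutrophil and erythroid markers at 0.710 to 8.72, 1.35 to 1.83 and 0 to 10.5, with S100a8 at 1 count. The part of these cells, of the satellite share and of library depth in the members' levels was not tested.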

How the data were processed

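Polyadenylated RNA was measured in 9 libraries of mouse CD8 T cells, 3 per group, primed with oligo(dT) and fragmented by transposase, per the labels' protocols. Whole-number counts per gene were deposited, made with STAR 2.7.3a and featureCounts on mm10, per the submitters' processing notes. Annotation release, strand setting and treatment of multiply mapped reads are not given in the sources used here. The authors also deposited a table of signal values, the counts divided by a size factor per library, per the file headers, which served here only for gene identifiers and biotypes.

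The analysis used edgeR 4.0.16 in R 4.3.3. Of 55011 genes, 10235 passed filterByExpr (minimum count 10), scaled by TMM. All libraries entered 1 robust quasi-likelihood fit (a mean for each group, leaving 6 degrees of freedom), and p was adjusted by Benjamini-Hochberg over the tested genes, with a threshold of 0.05. CPM are counts over the scaled totals of tested genes. The biological coefficient of variation was 0.210. In data simulated for D-2HG against control (10060 genes), 1.49%, 29.9% and 87.9% of genes changed by 0.5, 1 and 2 on the log2 scale were recovered. Only 67, 67 and 66 genes were changed there, whereas 22.3% of tested genes were called in the data. Adjustment over few changed genes is stricter, so these rates cannot be carried over to the members. Replicates differed by more than counting error (chi-square per degree of freedom 6.07 to 42.3).

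Positions and transcripts came from GENCODE M21, with 50-base stretches compared over all annotated transcripts, and starts from RefSeq. Members and lists were chosen with earlier results of these data known. Named members are the 8 with the highest mean CPM, genes of fixed roles and paralogue pairs, and in each comparison up to 6 with the largest positive and 6 with the largest negative change and the one nearest the median. From other lists at most 6 genes with the smallest adjusted p are named, with Fau and Rack1. Some genes are not reported here. Rps10, Rps21, Rps24, Rps15a, Rpl23, Rpl28, Rpl24, Eif3a, Larp1, markers, and other genes given to fill a count were named after their values were seen. Alternatives were DESeq2 1.42.0, limma 3.58.1 (voom), other scalings and filters, 2 groups only, a replicate block and leaving out each library.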

Additional observations from a re-analysis of the deposited data

How the results depend on the processing

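The median fold change of the members stayed negative with each compound in every alternative run other than the scaling to the members' sum. On that scale, which sets the members' sum equal between libraries, it was -0.0109 with D-2HG and 0.008 with L-2HG. Counts of members called lower moved. For D-2HG (14 in the fit reported) they were 34 by DESeq2, 66 by limma-voom, 0 on library totals without TMM, 9 without a filter, 7 at a mean count of at least 50, 27 with only the groups compared, and 0 to 62 leaving out 1 library. Up to the fit with only the groups compared, that is 41%, 79.5%, 0%, 10.5%, 8.54% and 32.5% of members tested. In the same order, 12.7%, 25.8%, 4.71%, 1.85%, 12.2% and 11.6% of all genes tested were called lower. For L-2HG (13) they were 40, 60, 0, 35, 3 and 0 under the same settings, beside 14%, 22.9%, 2.78%, 3.09%, 7.09% and 1.4% of all genes. They were 0 to 63 leaving out 1 library, and 45 (54.2%) with TMM over all genes before the filter, beside 19.6% of all genes. With neither control 2 nor L-2HG 2, 70 and 58 were called (84.3% and 69.9%), beside 22.4% and 17.5% of all genes called lower. Those last settings, and the scaling to the members' sum, were chosen after seeing the data. A replicate block gave 18 and 34 (21.7% and 41%), beside 10.1% and 10.5% of all genes called lower. After each group's mean was removed, same-numbered libraries correlated from -0.17 to 0.28 and differently numbered ones from -0.30 to 0.28. Removing the mean of 3 libraries itself shifts such values, so whether the numbers pair libraries cannot be told. Relative to the members' sum, calls ranged from 0 to 8 with either compound, leaving out 1 library. Without satellite and sensory receptor genes the D-2HG mean share was 7.54%. No member was called higher in any fit but those relative to the members' sum. The cause of these shifts was not tested.

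Over all genes, 1205 of 2278 calls were higher with D-2HG and 963 of 1812 with L-2HG. With DESeq2 these were 903 of 2205 and 667 of 2106, without a filter 531 of 1341 and 608 of 1962, with TMM before the filter 867 of 2272 and 568 of 2579, and on library totals 1127 of 1609 and 994 of 1279. The median of all genes moved to 0.11 and 0.41 without a filter and to -0.10 and -0.21 with TMM before it.

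Among named members, signs turned for Rps2 with L-2HG (-0.58 by limma-voom, -0.75 with neither library, and -0.71 to 0.56 leaving out 1 library, lowest without L-2HG 2). Between the compounds, leaving out 1 library gave -0.73 to 0.53 for Rps2 (0.53 with neither library), -0.19 to 0.22 for Rpl14, -0.17 to 0.25 for Rps4x and -0.20 to 0.23 for Rps21. The small depth of L-2HG 2 limits the L-2HG group.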
